A study of Caenorhabditis elegans with 2 samples.

Results

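EKL-4, the worm relative of the mammalian protein DMAP1, belongs to chromatin complexes of the NuA4 and SWR1 type, and this account describes where tagged EKL-4 was found at the genes that encode such complexes. The set was a fixed list of 10 gene names (ekl-4, epc-1, mrg-1, htz-1, ruvb-1, ruvb-2, mys-1, trr-1, gfl-1 and ssl-1), and all 10 were among the 19973 protein-coding genes annotated on the nuclear chromosomes. Peaks were assigned by their summit, the highest point, which had to fall inside the gene or no more than 1000 bp from an annotated transcript start (5' end). Binding was measured by chromatin immunoprecipitation and sequencing (ChIP-seq) in whole Caenorhabditis elegans, in 2 biological replicates of 1 group, with no other condition. The animals were young adults at 65 hours, grown from bleached embryos that had been held as starved first-stage larvae. They were of strain RW12207, in which CRISPR editing had inserted TY1, EGFP and FLAG sequences at ekl-4 (allele st12207), and GFP was the target of the immunoprecipitation. Whole animals mix germline and somatic tissues, so strong binding in a few cells and weak binding in many cannot be told apart.

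NuA4 complexes acetylate histones, and in the mammalian TIP60 complex the same assembly also carries an ATPase that exchanges histones. SWR1 complexes replace H2A in nucleosomes with the variant H2A.Z, which in many eukaryotes marks nucleosomes beside gene starts. The 2 kinds of complex share subunits, among them the DMAP1 and GAS41 relatives and the paired RuvB-like ATPases. In the worm, trr-1, mys-1, epc-1 and ssl-1 are class C synMuv genes, known for restraining vulval fates together with other chromatin regulators.

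Of the 10 genes, 6 had a summit in the conservative list, the authors' 2482 peaks that ranked alike in the replicates: epc-1, htz-1, ekl-4, mrg-1, ruvb-1 and ruvb-2. Over all protein-coding genes 10.6% had one by the same rule. The other 4 genes, mys-1, trr-1, gfl-1 and ssl-1, had none. The authors also deposited a larger thresholded list of 2847 peaks, a thresholded list for each replicate, and a longer ranked list, with no threshold, behind each of the 4. When only the window around 5' ends was counted, and not the gene body, the same 6 genes were found, against 8.82% of all genes. Because the genes were listed with results of these data known, the counts are a description and no test was made on them. Signal below is the strength that the authors' peak caller gave a peak relative to the control, on a scale that is not stated, so levels are ranked within a list, and values of the replicates are given side by side.

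The strongest conservative summit of each of the 6 genes lay in the intergenic stretch upstream of that gene. Over the strongest summits of all 2113 protein-coding genes with a conservative summit, 59.9% were upstream and 46.7% intergenic. The sequences of 5 of the 6 member summits are shown to let their motifs be compared. The ekl-4 sequence is not shown here. The 5 run on the strand of the named gene, 75 bp to each side of the summit (base 76), and hold no annotated exon. They were read from the WBcel235 genome, whose coordinates are those of ce11. Capitals mark matches, on either strand, to 7 motifs. For the E2F site the letters searched were TTCCCGC and TTCGCGC, as well as TTGCCGC and TTGGCGC. The cell cycle homology region (CHR) was searched as TTTGAA and as TTCGAA, which reads the same on both strands. The others were searched as their own letters, CTGCGTCTC and TATAAA, then CCAAT and the palindrome CACGTG, and lastly GAGAGA. No motif contains another. A match describes letters and is no evidence of a factor.
epc-1, chrIII:12608736-12608886, minus strand: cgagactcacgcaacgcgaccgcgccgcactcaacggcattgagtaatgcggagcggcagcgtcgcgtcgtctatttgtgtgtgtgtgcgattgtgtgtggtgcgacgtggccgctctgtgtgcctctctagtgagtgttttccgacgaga
htz-1, chrIV:4445839-4445989, plus strand: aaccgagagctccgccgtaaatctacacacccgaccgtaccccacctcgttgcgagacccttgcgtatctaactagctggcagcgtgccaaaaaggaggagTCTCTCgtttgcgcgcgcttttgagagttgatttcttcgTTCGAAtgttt
mrg-1, chrIII:12874819-12874969, minus strand: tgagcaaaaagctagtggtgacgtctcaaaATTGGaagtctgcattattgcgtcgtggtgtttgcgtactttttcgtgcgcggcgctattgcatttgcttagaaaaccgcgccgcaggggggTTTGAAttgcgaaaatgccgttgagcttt
ruvb-1, chrV:9980808-9980958, minus strand: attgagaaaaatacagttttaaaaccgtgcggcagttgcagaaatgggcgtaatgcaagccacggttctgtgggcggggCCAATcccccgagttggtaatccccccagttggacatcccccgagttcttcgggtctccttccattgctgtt
ruvb-2, chrIV:6919418-6919568, minus strand: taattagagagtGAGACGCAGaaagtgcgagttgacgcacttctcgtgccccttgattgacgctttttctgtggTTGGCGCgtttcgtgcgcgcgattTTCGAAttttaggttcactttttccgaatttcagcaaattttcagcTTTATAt

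CHR matches were in 3 of the 5 printed sequences, and no motif was in all of them. In ruvb-2 an E2F match (TTGGCGC) was centred 2 bp downstream of the summit, with a CTGCGTCTC match on the other strand 59 bp upstream of it, a CHR match 26 bp downstream and a TATAAA match on the other strand 72 bp downstream. The mrg-1 sequence held a CHR match at 50 bp downstream and a CCAAT match on the other strand at 43 bp upstream. In htz-1 a CHR match lay 68 bp and a GAGAGA match 28 bp downstream, in ruvb-1 a CCAAT match 6 bp downstream, and the epc-1 sequence held no match within its 151 bp. Within 100 bp to each side of the summit, E2F matches were found at 2 of the 6 summits (htz-1 and ruvb-2), and in 18.8% of the 1552 conservative summits that stood no more than 1000 bp from the start of a protein-coding transcript. CHR matches were at 4 of 6 against 46.2%, CCAAT at 3 against 32.9%, GAGAGA at 2 against 24.4%, TATAAA at 1 against 13%, CTGCGTCTC at 1 against 6.96% and CACGTG at none against 4.96%. The median GC content of the 6 windows was 45.5% (34.3 to 56.7), and that of the 1552 was 42.3% (quartiles 37.8 and 47.8).

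Promoters, taken as 250 bp before to 50 bp after the outermost 5' end, were searched for all 10 genes, bound or not. E2F matches were in 2 of them, ruvb-2 and trr-1, against 9.2% of 19973 promoters. CHR matches were in 7 against 68.9%, CCAAT in 5 against 45.5%, TATAAA in 3 against 37.9%, GAGAGA in 3 against 21.8%, CTGCGTCTC in 1 against 2.93% and CACGTG in 1 against 5.82%.

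**Figure D1:**
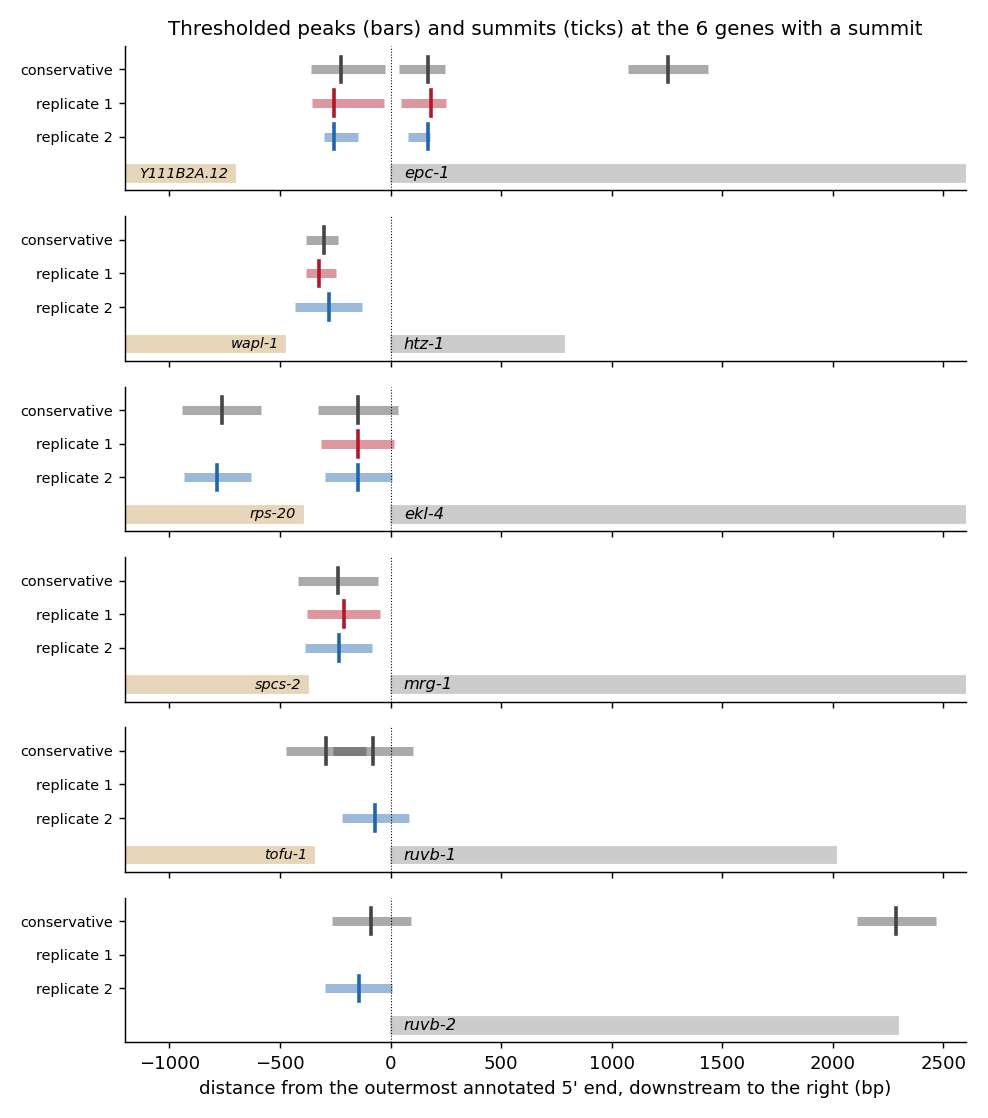
Thresholded peaks at the 6 genes with a conservative summit, plotted by distance in bp from the outermost annotated 5' end, with downstream to the right. Bars are peaks and ticks their summits in the conservative list (grey), replicate 1 (red) and replicate 2 (blue); grey boxes are the genes and tan boxes divergent neighbours. In each panel at least 1 conservative summit stands left of the dotted line, and ruvb-1 and ruvb-2 have no replicate 1 peak.

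The tagged gene and the scaffold subunit gene epc-1 were among the more strongly bound. EPC-1 is the relative of Enhancer of Polycomb, the subunit that holds the NuA4 acetyltransferase module together. At epc-1 (WBGene00007030, chromosome III 12599630 to 12608586, minus strand) the strongest conservative summit had a signal of 394, which ranked 68 of 2482, and lay at -225 bp (negative distances are upstream of the nearest 5' end of the gene). Its signal was 217 in replicate 1 and 216 in replicate 2, and both replicates placed the summit at -256 bp. The summit stood at rank 33 of 1495 in replicate 1 and rank 80 of 1846 in replicate 2. A further summit at 49 bp downstream of a 5' end, in an annotated 5' UTR, had a conservative signal of 117, with 69.5 in replicate 1 and 82.7 in replicate 2. Inside the gene, an intronic summit at 1135 bp had a signal of 67.6 in the conservative list and was in neither replicate's thresholded list. The larger list instead held one in a coding exon at 2332 bp (signal 80). The upstream summit also lay -215 bp from the non-coding RNA gene Y111B2A.34 and -478 bp from the divergent gene Y111B2A.12.

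At ekl-4 itself (WBGene00013676, chromosome I 14469500 to 14476894, plus strand) the main summit was in the intergenic stretch that ekl-4 shares with rps-20, a gene for a protein of the small ribosomal subunit. The 2 genes are divergent, with 397 bp between their 5' ends. Replicate 1 gave this summit a signal of 102, replicate 2 one of 139, and the conservative list 234 (rank 214). It was placed alike in the lists, at -147 bp in the conservative list, -149 bp in replicate 1 and -146 bp in replicate 2, and was -250 bp from rps-20. A weaker conservative summit at -763 bp (signal 95.5) lay in a coding exon of rps-20 and at -246 bp from the microRNA gene cel-mir-354. That one was in the thresholded list of replicate 2 (65.4) and not in that of replicate 1, whose ranked list held it at 37.7 with a score of 486. The ekl-4 body held no thresholded summit in any of the 4 lists. In the conservative ranking, though, no summit at all was listed for 50130 bp from position 14470079, and 0.0691% of spacings in that ranking are as long. The larger ranking did list summits in that stretch, the strongest inside ekl-4 at 6997 bp in the 3' UTR (signal 44.9, score 353). The conservative ranking thus lists no value for most of the gene body, and the cause was not tested.

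HTZ-1 is the worm H2A.Z, the histone variant that SWR1 complexes deposit, and each thresholded list held a summit upstream of its gene. At htz-1 (WBGene00019947, chromosome IV 4446216 to 4446999, plus strand) the conservative summit had a signal of 254, rank 172, and lay at -302 bp. Replicate 1 gave a signal of 128 and replicate 2 gave 121, with the summits at -322 and -280 bp. It was nearer to the divergent neighbour wapl-1, which encodes a cohesin release factor, at -174 bp. The conservative peak was 147 bp wide, where 360 bp was the commonest width, and 10.6% of the list was narrower than that. A second htz-1 summit, just past the gene's 3' end and within 1000 bp of its 5' end, was in the larger list alone (signal 77.9). It lay -236 bp from chat-1, which encodes a chaperone of a lipid flippase.

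MRG-1 is a chromodomain protein related to MRG15, a NuA4 subunit that recognises methylated H3K36 in other species. At mrg-1 (WBGene00003406, chromosome III 12871029 to 12874656, minus strand) a single summit lay at -238 bp, with a signal of 146 and rank 651 in the conservative list. Signal there was 91.8 in replicate 1, rank 294 of 1495, and 62.5 in replicate 2, rank 1298 of 1846, so mrg-1 stood in the upper part of the first list and the lower part of the second. The summit was nearer to spcs-2, a signal peptidase subunit gene, at -137 bp, and the 5' ends of that divergent pair are 375 bp apart. Just outside the rule, 2 further conservative summits flanked the gene, at 110 bp past its 3' end (signal 104) and at -1256 bp in a coding exon of cec-7 (rank 1385). This was not particular to mrg-1. Such summits also lay at -1374 bp from ekl-4 (signal 159) and 985 bp past the 3' end of epc-1 (signal 165). Another lay 167 bp past that of ruvb-1 (signal 98.2), and those of gfl-1 are treated below.

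The genes for the paired ATPases, which form the RuvB-like ring shared by INO80, SWR1 and NuA4 type complexes, had weaker summits that replicate 1 did not carry past the threshold. At ruvb-1 (WBGene00007784, chromosome V 9978791 to 9980802, minus strand) the strongest summit lay at -81 bp with a conservative signal of 113, rank 1120. It was in the list of replicate 2 at 85.2, and in replicate 1 only in the ranked list, at 38.9 with a score of 504. The neighbour sharing it is tofu-1, a gene of the piRNA pathway, at -264 bp. A second conservative summit at -293 bp, with a signal of 34.1, was nearer to tofu-1 (-52 bp) and had no ranked summit of either replicate within 200 bp. The conservative list gave this second summit a score of 1000. The larger list did not hold it, and the larger ranking gave it a score of 44. In the 100 bp to each side of the ruvb-1 summits, 61.4% and 50.3% of 31-mers occurred more than once in the genome, against 0% around each of the other 9 member summits. The part of repeated sequence in these 2 signals was not tested.

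At ruvb-2 (WBGene00020687, chromosome IV 6917111 to 6919406, minus strand) the strongest summit lay at -87 bp, with a conservative signal of 106 and rank 1279. Replicate 2 held it at 72 and -145 bp, and replicate 1 had it only in the ranked list, at 41.3 with a score of 626. Among the 6 bound genes ruvb-2 alone had no divergent gene within 1000 bp. Its upstream neighbour T22D1.18 is on the same strand and ends 551 bp before ruvb-2 starts. The strongest summit lay 670 bp downstream of the 5' end of T22D1.18, so by the 1000 bp rule that gene shares it. A conservative summit in the 3' UTR of ruvb-2 (signal 69.7, score 846) had T22D1.3 as its nearest neighbour, at 2039 bp. It was in the thresholded list of neither replicate. The larger list did not hold it either, and the larger ranking gave it a score of 707.

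**Figure D2:**
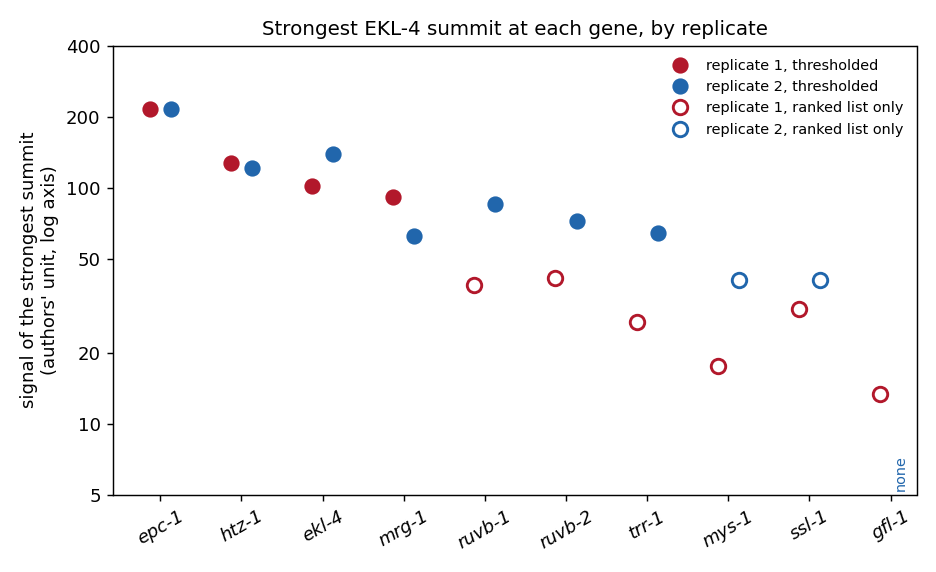
Signal of the strongest summit at each of the 10 genes (log axis, the authors' unit) in replicate 1 (red) and replicate 2 (blue). Filled points passed the authors' threshold and open points stand only in the ranked list; epc-1, htz-1, ekl-4 and mrg-1 are filled in both replicates, and gfl-1 has no ranked summit in replicate 2.

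Both replicates' own thresholded lists held a summit for 4 of the 10 genes (epc-1, htz-1, ekl-4 and mrg-1), against 5.12% of all protein-coding genes. In replicate 1 those were the 4 genes found, against 6.99% of all genes. Replicate 2 added ruvb-1, ruvb-2 and trr-1, which makes 7 of 10 against 8.04%. The same 7 had a summit in the larger list, against 11.9%. Of the 11 conservative member summits 9 had a ranked summit in each replicate within 200 bp, and the ratio of replicate 2 to replicate 1 there had a median of 1.19 (0.681 at mrg-1 to 2.19 at ruvb-1). Over 2349 conservative summits the median ratio was 1.38 (quartiles 1.11 and 1.71). The 2 replicates placed those 9 summits a median of 23 bp apart and at most 84 bp, and the median over all 2349 was 28 bp.

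Signals spread widely among the bound members. The strongest summit of the 6 genes had a median signal of 190 (106 to 394), and that of all 2113 protein-coding genes with a conservative summit a median of 119. Taken gene by gene, epc-1 was above 95.9% of those genes, htz-1 above 90.1%, ekl-4 above 88%, mrg-1 above 66.6%, ruvb-1 above 46.9% and ruvb-2 above 40.3%. The order of the leading 3 was not the same in each replicate: ekl-4 was above htz-1 in replicate 2 (139 and 121) and below it in replicate 1 (102 and 128). In both replicates epc-1 stood first.

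**Figure D3:**
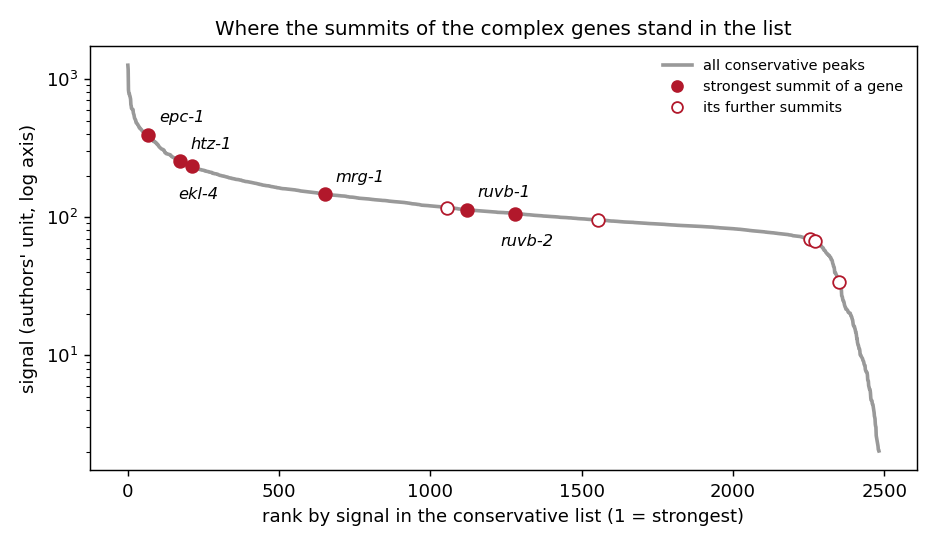
Signal (log axis, the authors' unit) against rank for the 2482 peaks of the conservative list, with the strongest summit of each bound gene as a filled point and its further summits as open points. The strongest summits run from rank 68 at epc-1 to rank 1279 at ruvb-2, and the weakest further summit, at ruvb-1, has a signal of 34.1.

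Of the 11 conservative member summits 8 were upstream of the member (72.7%), against 56.8% of the 2627 pairs of a summit and a protein-coding gene that the same rule gives, and 7 were intergenic (63.6%, against 42.7%). The median distance was -147 bp (-763 to 2286). Another protein-coding 5' end lay within 1000 bp of 9 of them (81.8%, against 43.9%), and 5 were nearer to that of another gene (45.5%, against 30%), among them the strongest summits of htz-1 and mrg-1. These shares, over 11 summits of 6 genes, were not tested. A summit in such a stretch cannot be assigned to either gene from these data. A divergent protein-coding gene began within 1000 bp upstream of 7 of the 10 genes, against 17.7% of all protein-coding genes. Of those 7 members 5 had a conservative summit, against 19.2% of the 3539 divergent genes, and of the other 3 members 1 had one, against 8.73% of the remaining 16434. The divergent members without a summit were trr-1, whose neighbour C47D12.2 starts 379 bp away, and gfl-1, whose neighbour M04B2.4 starts 259 bp away.

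The acetyltransferase gene mys-1, the gene for the large scaffold TRR-1, the YEATS-domain gene gfl-1 and the remodelling ATPase gene ssl-1 had no conservative summit. MYS-1 is the MYST-family acetyltransferase related to TIP60, TRR-1 the relative of TRRAP, GFL-1 that of GAS41 and SSL-1 a Swi2/Snf2 ATPase like p400 and SRCAP. The ranked lists hold many more peaks (49388 to 90719) than the thresholded ones and gave a summit to 9 of the 10 genes in both replicates, against 61.7% of all genes. By ranking these shares were 73.7% for the conservative one, 76% for the larger, 66.6% for replicate 1 and 80.6% for replicate 2, and all 10 genes had a ranked summit in each but the last. There gfl-1 had none. At none of the 10 genes did a ranked peak with a score of 830, the lowest in the thresholded lists, fail to appear in the thresholded list.

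At trr-1 (WBGene00007028, chromosome II 11661569 to 11675927, minus strand) the larger list held a summit in a coding exon 3908 bp from the nearest 5' end (signal 72.6, score 936), and replicate 2 held it with a signal of 64.6. In the conservative ranking the same summit had a score of 165. The strongest trr-1 summit there was near the start, at 273 bp in a coding exon, with a signal of 79.2 and a score of 495. Its counterparts had signals of 20.2 in replicate 1 and 42.9 in replicate 2. So trr-1 had summits below the threshold at its start and 1 above it, in replicate 2 and the larger list, in its body.

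At mys-1 (WBGene00007029, chromosome V 7081545 to 7084662, minus strand) the strongest summit of the conservative ranking lay in the 3' UTR, 2979 bp from the start, with a signal of 70.5 and a score of 365 (nearest neighbour npa-1, at 2356 bp). Replicate 2 had a signal of 40.6 there and replicate 1 had 17.5. At the mys-1 start the conservative ranking held signals of 41.9 at 118 bp and 17.1 at -81 bp. At ssl-1 (WBGene00007027, chromosome III 12714566 to 12744721, plus strand), the longest of the 10 genes at 30156 bp, the conservative ranking held 21 summits, none with a score above 280. The strongest was intronic, 1492 bp downstream of an inner 5' end, with a signal of 54.9. There the signal was 14.1 in replicate 1 and 40.8 in replicate 2. Replicate 1 had its strongest ssl-1 summit at -496 bp, with a signal of 30.5, and 543 bp from the start of hut-1. The larger ranking held that summit with a signal of 50.7 and a score of 512. The replicate 2 ranking listed no summit over 29108 bp, from 12686584 to 12715692, which covers this position. Of its spacings 0.218% are as long. The conservative ranking lists no summit over 28835 bp there, from 12686826 to 12715661, which covers the outermost annotated 5' end of ssl-1. The summit at which this stretch ends lay 62 bp upstream of an inner 5' end (signal 19.1, score 108). In that ranking 0.341% of spacings are as long.

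The lowest listed values were at gfl-1 (WBGene00001585, chromosome IV 11521290 to 11522214, plus strand). Its strongest summit in the conservative ranking, in an intron at 278 bp, had a signal of 30.3 and ranked 32574 of 83980. That ranking lists no summit over the 23629 bp before it, from 11497939 to 11521568, which covers the annotated gfl-1 start. Of its spacings 0.538% are as long, so binding at the gfl-1 start cannot be read from that ranking. Replicate 1 reached 13.4, with scores of 26. A conservative thresholded peak lay just outside the rule, with its summit 225 bp past the 3' end of gfl-1 and 1149 bp from its start (signal 87, rank 1826). A weaker one lay 1715 bp past that end (signal 68.2). Counting any overlap of a peak in place of its summit would add gfl-1 through the nearer peak.

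**Figure D4:**
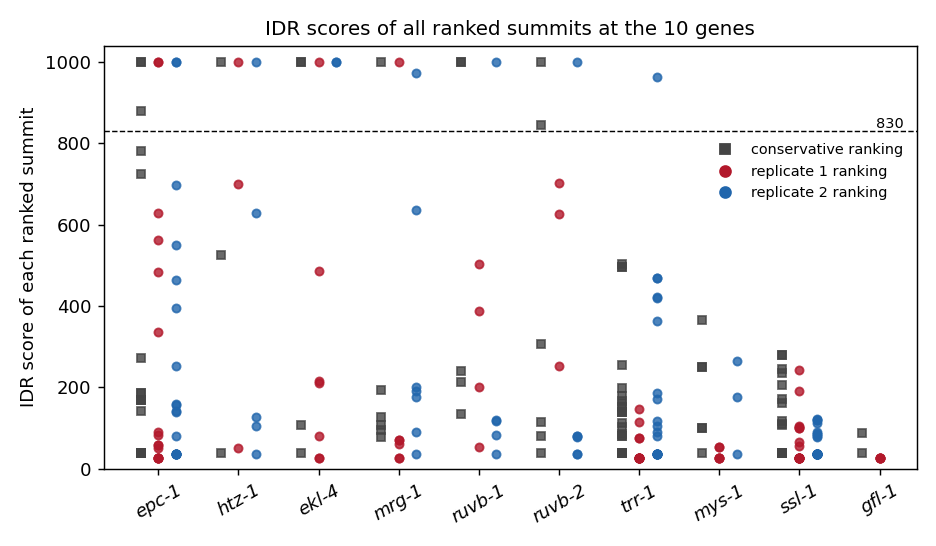
Score of each ranked summit at the 10 genes, from the irreproducible discovery rate (IDR) ranking of the authors, in the conservative ranking (grey squares), replicate 1 (red) and replicate 2 (blue). The dashed line is at 830, the lowest score in the thresholded lists; the 6 genes to the left have grey squares above it, trr-1 has 1 blue point above it, and mys-1, ssl-1 and gfl-1 have none.

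A further list held genes for subunits and interactors of such complexes: arp-6, zhit-1, vps-72, ing-3, mys-2 and bet-1. It was examined in the same way, and 5 of its 6 names were in the annotation (vps-72 was not found under that name). None of the 5 had a summit in the conservative list, against 10.6% of all genes, or in the thresholded list of replicate 1 (6.99%) or replicate 2 (8.04%). The larger list held 1 of the 5, against 11.9%. Among 5 genes, counts of 0 and 1 are near those shares, and a difference from the 10 genes above was not tested. The 1 was ing-3, a gene of the inhibitor of growth family, with a summit in a coding exon at 149 bp and a signal of 94.9 (nearest neighbour ndub-8). In the conservative ranking arp-6, for an actin-related SWR1 subunit, reached 47.3 at 274 bp. There zhit-1, for a zinc finger HIT protein, reached 58.4, in sequence that is also the 3' UTR of crn-2. The double bromodomain gene bet-1 reached 49.7 there, at 161 bp, and the MYST-family gene mys-2 had no summit in that ranking and a signal of 51 in the larger one. All of mys-2 lies in a stretch of 12862 bp for which the conservative ranking lists no summit. The same holds for all of ing-3, in a stretch of 23176 bp, and for part of bet-1, in a stretch of 17847 bp.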

How the data were processed

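Each replicate has a thresholded and a ranked peak list, and the series has 2 more of each kind (conservative and larger). Peaks were called on ce11 against a control alignment and ranked by IDR, per the file headers of the accompanying text. For the aligner and caller, names and versions were not given in the sources used here. In each deposited list, the signal value is the caller's peak strength relative to the control. The deposited score is the authors' IDR score, at most 1000, and the deposited −log10 q-value column was not used further. Read depth is unknown. Of the rankings, 32 columns of values for partial inputs were not used.

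Summits are the peak start plus the deposited offset, 1-based. Genes came from Ensembl 115 on WBcel235, and no peak ended beyond its chromosomes. Ranks are by signal within a list. The members, lists, motifs and alternatives were chosen with earlier results of these data known. Text names all 10 members, 6 further genes for subunits and interactors, and nearest neighbours of summits described. cec-7, crn-2, C47D12.2 and M04B2.4 were named after their values were seen. The split of genes by divergent neighbours and the shares of summit places over all genes were added after seeing the data. With 1 group, nothing was tested. The 2 replicates are labelled as biological. The counting rule was tested on simulated data with planted summits. Python 3.11.15, numpy 2.4.6, pandas 2.3.3 and matplotlib 3.10.9 were used.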

Additional observations from a re-analysis of the deposited data

How the results depend on the processing

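No paired analysis was possible because there was only 1 group. The 6 members with a conservative summit became between 4 (each summit given only to the nearest 5' end, or without replicate 2) and 7 (the larger list, any overlap, or without replicate 1) over 9 alternatives, within 1.5 times. The count in both replicates' lists was 4, but 2 with each summit given only to the nearest 5' end and 9 in the ranked lists, which are far longer. E2F matches at 2 summits became 1 with 50 bp to each side (ruvb-2). Without replicate 1 there was 1 among 7 summits (ruvb-2), and without replicate 2 there was 1 among 4 (htz-1). The further genes had 0, and 1 in the larger list. The median distance of -147 bp became -84 bp with a window of 250 bp, with nearest 5' ends only and with any overlap, -87 bp in the larger list and -225 bp without gene bodies. It ran from -212 to -146 bp when a replicate was left out. All these medians were upstream. The cause of these shifts was not tested. Read depth is unknown, so how far it limits weak summits is not known.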

Other observations

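Long stretches with no ranked summit lay in or beside several genes, in some lists and not in others. At ekl-4 none was listed between chromosome I 14469354 and 14520203 in replicate 2 (50849 bp), where the median spacing is 617 bp and 0.0452% of spacings are as long. In replicate 1 the longest such stretch touching ekl-4 was 4868 bp. At ruvb-2 the longest was 54824 bp in replicate 1, running from the upstream summit away from the gene and covering none of it. In replicate 2 the longest at ruvb-2 was 1157 bp. At gfl-1 it was 14986 bp in replicate 2, which held the whole gene. In replicate 1 it was 22751 bp and ended upstream of gfl-1. The whole of mys-2 lay in such a stretch in the conservative ranking (12862 bp) and in replicate 2 (18437 bp), and that of bet-1 in replicate 1 (23836 bp). At ing-3 it was 23176 bp in the conservative ranking and 24972 bp in replicate 2, and both stretches held the whole gene. A gene without a ranked summit in such a stretch is unlisted there, and whether it was bound is not known. The cause of these stretches was not tested.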
